A study of Mus musculus with 22 samples.

Results

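The Zscan4 genes form a cluster of near-identical copies on mouse chromosome 7. The 7 copies described here, Zscan4a, Zscan4b, Zscan4c, Zscan4d, Zscan4e, Zscan4f and Zscan4-ps2, were taken by their gene symbols in GENCODE M21 from 55487 genes listed in each of 2 deposited expression tables, and all 7 were found in both. Because the copies share sequence, their reads were also added up to a family sum.

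Full-length Zscan4 proteins join a SCAN domain, which pairs proteins with one another, to zinc fingers that bind DNA. They are a hallmark of the 2-cell mouse embryo, and in embryonic stem cell cultures they appear in bursts in a small, changing fraction of the cells. The family is known for its part in telomere maintenance and genome stability, and its genes are among those activated by DUX, a transcription factor with a pair of homeodomains that acts when the embryonic genome is first switched on.

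The libraries came from a Dux-/- mouse embryonic stem cell line grown in 2iLIF, a medium with 2 kinase inhibitors and leukaemia inhibitory factor. All groups, controls included, were given 0.25 ug/mL doxycycline for 12 hours after 24 hours of recovery from plating, and each group carried mCherry, a red fluorescent protein, alone or joined to a form of DUX. The tag alone is the control group, mCherry, and FL carries the full-length protein, while C3+14, C1C3a, C1C3b, C1C3c, C1+14, C12345delt14, deltC12345+14 and deltC12345delt14 are derivatives whose parts the labels do not spell out. The first table, called the chimera table here, holds 14 libraries (FL, C3+14, C1C3a, C1C3b, C1C3c, C1+14, mCherry), and the second, called the deletion table, holds 8 libraries (the same FL libraries, C12345delt14, deltC12345+14, deltC12345delt14). The labels give 2 replicates per group and no separate clones or cultures, so p-values measure only the spread between those samples, which may be technical. A remaining group, C3delt14, was not analysed here.

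Promoters are shown because the copies moved together across constructs. RefSeq promoter windows of 300 bases (250 before to 50 after the start, GRCm38.p6) were at hand for 4 of the 7 genes: Zscan4b (minus strand, chr7:10905072-10905231), Zscan4c (plus strand, chr7:11005541-11005700), Zscan4d (minus strand, chr7:11166204-11166363) and Zscan4f (plus strand, chr7:11397734-11397893). The stretches printed are 160 bases long and read 5′ to 3′ towards the gene. Capitals mark matches to 3 motifs, namely TGATNNAATCA, TGATTCAA and the TATA box TATAAA.
Zscan4b: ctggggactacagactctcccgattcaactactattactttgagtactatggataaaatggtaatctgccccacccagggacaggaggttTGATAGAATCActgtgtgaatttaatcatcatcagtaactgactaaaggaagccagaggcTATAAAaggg
Zscan4c: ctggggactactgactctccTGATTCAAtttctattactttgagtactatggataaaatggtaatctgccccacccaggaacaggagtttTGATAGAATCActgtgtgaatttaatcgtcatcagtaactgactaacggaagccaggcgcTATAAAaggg
Zscan4d: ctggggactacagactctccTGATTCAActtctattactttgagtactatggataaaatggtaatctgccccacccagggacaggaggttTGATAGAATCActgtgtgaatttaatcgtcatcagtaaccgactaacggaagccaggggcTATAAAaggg
Zscan4f: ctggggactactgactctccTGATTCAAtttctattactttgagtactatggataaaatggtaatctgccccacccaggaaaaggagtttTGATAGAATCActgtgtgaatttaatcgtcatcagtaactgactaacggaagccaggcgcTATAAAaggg

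The stretches were 93.1% to 99.4% identical to one another, and those of Zscan4c and Zscan4f differed at 1 of 160 bases (159 identical). All 4 held TGATNNAATCA, in the form TGATAGAATCA, at positions -125 to -91 from the start, and 68 of 32851 promoter windows of the same length (0.207%) held it on either strand. TGATTCAA stood in Zscan4c, Zscan4d and Zscan4f but not in the window of Zscan4b, and 191 windows (0.581%) held it on either strand. TATAAA was found on the gene's strand in all 4 and in 8.32% of all windows. The motifs were chosen after these windows had been read and do not overlap one another here. A match describes letters only and is no evidence of binding.

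The family spans 724.87 kb in GRCm38. Zscan4a (ENSMUSG00000110097, minus strand) lies at 10794242 to 10799057, Zscan4b (ENSMUSG00000095339, minus) at 10900740 to 10905050, Zscan4c (ENSMUSG00000054272, plus) at 11005745 to 11010547 and Zscan4d (ENSMUSG00000090714, minus) at 11161374 to 11166159. Zscan4e (ENSMUSG00000095936, minus) lies at 11306378 to 11310682, Zscan4f (ENSMUSG00000070828, plus) at 11397915 to 11402318 and Zscan4-ps2 (ENSMUSG00000110190, plus) at 11514310 to 11519111. GENCODE lists Zscan4a as an unprocessed pseudogene and the other 6 as protein coding, while RefSeq also lists Zscan4e and Zscan4-ps2 as pseudogenes. The values counted here are per annotated gene, over exons of 1793 (Zscan4e) to 2279 bases (Zscan4a).

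The copies can be told apart only in part. Of the 50-base words in a copy's transcripts, 90.1% in Zscan4b, 89.0% in Zscan4e, 87.6% in Zscan4-ps2, 86.8% in Zscan4f and 85.5% in Zscan4c also occur in another gene, against 63.6% in Zscan4a and 49.6% in Zscan4d. Zscan4b keeps 178 words of its own and Zscan4d 1121. How reads that match several copies were assigned is not given in the sources used here, so each single copy's value is uncertain and the family sum leads below. Outside the Zscan4 symbols only 2 annotated genes, Gm17737 and Gm45551, share a 50-base word with the copies.

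The libraries held 21059953 to 32543856 reads in the chimera table and 27326760 to 40448890 in the deletion table, and 1 read was worth 0.620 to 1.81 normalised reads (reads divided by 1 size factor per library). Duxf3, the annotated Dux gene, was listed at 0 reads in all 20 libraries, FL included, so its row checks neither the knockout nor the dose of the transgenes. Summed over 10 pluripotency genes, levels were 49934 to 111250 normalised reads in the chimera table, against 623 to 2252 over 10 trophectoderm, 2124 to 4169 over 10 primitive endoderm and 121 to 362 over 10 fibroblast genes, so the stem cell markers were present in every library. A set of 1586 high-copy genes split the libraries in a way that was not the construct alone: their part of all reads was 1.67% to 2.59% in 14 libraries and 0.294% to 0.430% in the other 6, which are both replicates of C3+14 and mCherry, deltC12345+14 replicate 2 and deltC12345delt14 replicate 1. In the chimera table this split cannot be told apart from the constructs, and its part in the results on these multi-copy genes was not tested.

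With full-length DUX, Zscan4 reads made up a large part of the libraries. The 2 FL libraries held 3129400 and 2149464 Zscan4 reads, which is 9.73% and 6.85% of all their reads (mean 8.29% ± 2.04, SD, n = 2). Both mCherry libraries held 0 reads for every one of the 7 copies, of 31203170 and 23949774 reads, which allows a share of up to 9.61e-06% and 1.25e-05% by counting error alone. Against that limit of 3 reads per library, the family sum was at least 1574680-fold higher in FL. In limma, fitted over all 21584 genes tested plus the sum, the difference was 21.71 on the log2(value + 1) scale (SE 0.40, adjusted p = 5.21e-14). Reads are bulk values, so fewer expressing cells and less RNA per cell cannot be told apart.

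**Figure D1:**
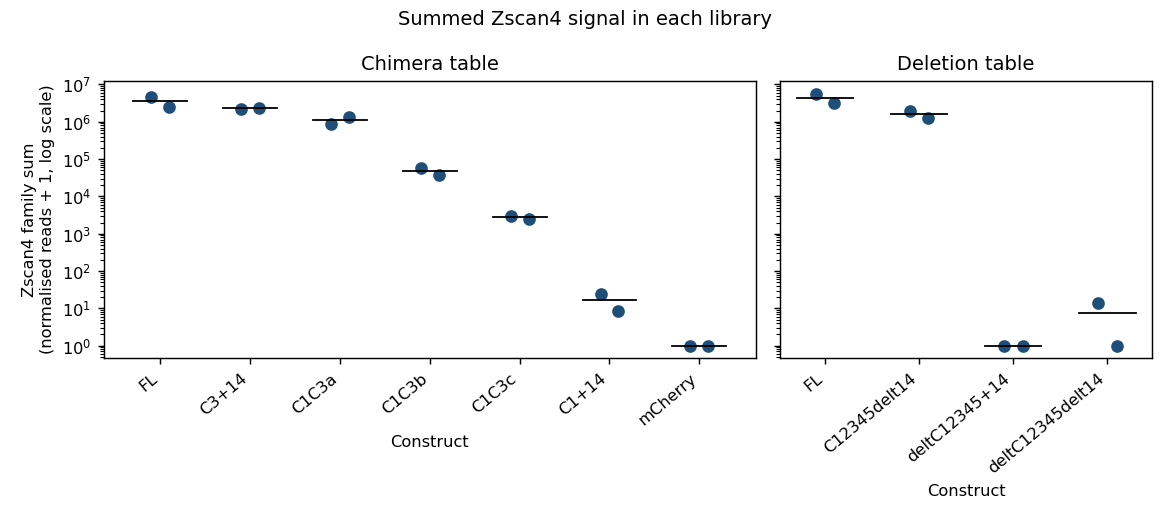
Zscan4 family sum in every library, in normalised reads + 1 on a log axis, with the chimera table on the left and the deletion table on the right. Points are libraries and short lines are means of 2 replicates. In the chimera table FL, C3+14 and C1C3a sit between 860351 and 4610723 normalised reads, C1C3b and C1C3c lie far below them, and mCherry is at 0. In the deletion table FL sits at 5670802 and 3200542 normalised reads, and deltC12345+14 is at 0.

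Among the chimeras the family level fell by construct towards mCherry. C3+14 held 1309414 and 1486129 family reads (6.48% ± 0.369 of all reads, n = 2) and C1C3a held 777257 and 933501 (2.77% ± 0.544). C1C3b held 66483 and 40721 reads, C1C3c held 3902 and 3704, and C1+14 held 32 and 12. As a percent of the FL mean, after scaling, C3+14 stood at 64.2% ± 4.20, C1C3a at 30.4% ± 9.10, C1C3b at 1.35% ± 0.396, C1C3c at 0.0760% ± 0.00861 and C1+14 at 0.000430%. FL itself was at 100% ± 40.5, since its replicates differed 1.80-fold. All of these levels were above mCherry.

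The family sum passed the test against mCherry in each of those constructs. The log2 differences were 21.13 for C3+14 (adjusted p = 9.77e-14), 20.02 for C1C3a (adjusted p = 1.25e-13), 15.53 for C1C3b (adjusted p = 4.34e-12), 11.41 for C1C3c (adjusted p = 3.00e-10) and 3.84 for C1+14 (adjusted p = 1.68e-05), each with an SE of 0.40. Set against the 3-read limit, the sum was at least 1010520-fold higher for C3+14, at least 479228-fold for C1C3a, at least 21202-fold for C1C3b, at least 1196-fold for C1C3c and at least 6.77-fold for C1+14. The mCherry libraries are common to all of these comparisons, and intervals and limits from reads cover counting error only. The SE of 0.40 is shared by all groups, while the SD of the log2 sum was 1.08 in C1+14 and 0 in mCherry. With mCherry at 0, the size of these differences depends on the value added before taking logs. Over the alternatives with all libraries of the groups compared, it ran from 1.46 to 7.10 for C1+14 and from 17.77 to 25.03 for FL.

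Each copy was tested as its own row as well. All 7 passed the filter on low values, which they did through the groups where they are high, so their counts of calls are a description. All 7 were called higher than mCherry in FL (24.5% of all genes tested were called higher), C3+14 (29.6%), C1C3a (27.4%), C1C3b (27.6%) and C1C3c (18.3%). In C1+14, 4 of 7 were called higher (12.4% of all genes), namely Zscan4c, Zscan4d, Zscan4f and Zscan4-ps2. The median log2 difference over the 7 copies was 18.92 in FL, beside 0.09 over all genes tested, and 8.20 in C1C3c, beside 0.01.

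The trace in C1+14 rested on 0 to 11 reads per copy and library. Zscan4f had 11 and 3 reads, Zscan4c 9 and 3, Zscan4-ps2 7 and 1, Zscan4d 2 and 3, Zscan4a 3 and 0, and Zscan4b and Zscan4e 0 and 1 each. No copy had a read in mCherry, so both C1+14 libraries exceeded both mCherry libraries for the family sum. With edgeR's quasi-likelihood test on the recovered reads, 0 of 7 copies were called in C1+14, while the sum kept its call. C1C3c stood 177-fold above C1+14 for the sum (95% counting interval 137 to 253).

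**Figure D2:**
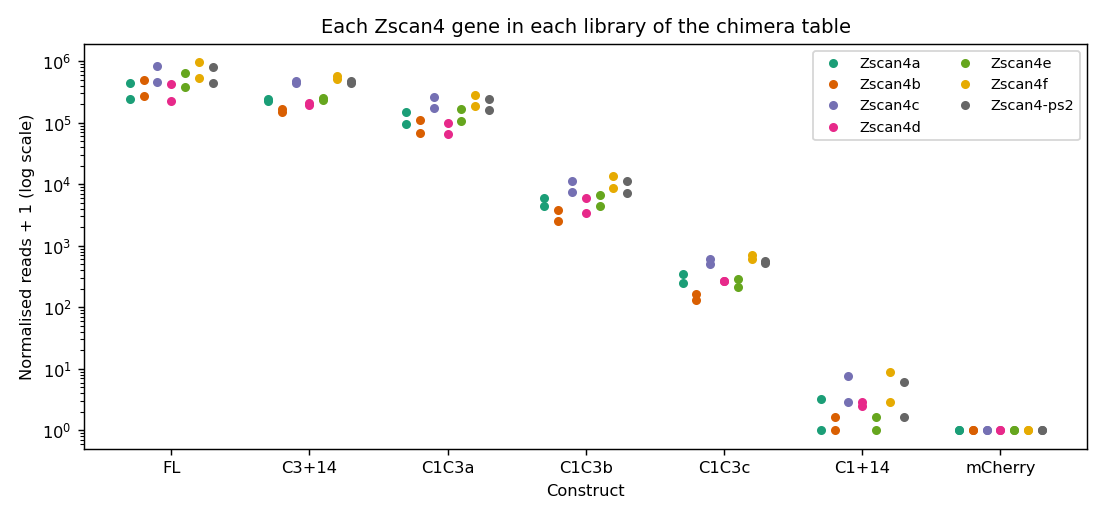
Normalised reads + 1 on a log axis for each of the 7 Zscan4 genes, by construct, in the chimera table, with 1 point per library and 2 libraries per construct. All 7 copies descend together from the FL, C3+14 and C1C3a levels to C1C3b, C1C3c and C1+14, and all are at 0 in mCherry.

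Neighbours in the order of the levels were then compared. FL and C3+14 did not differ beyond their spread: the sum was 4610723 and 2558685 normalised reads in FL and 2193848 and 2406993 in C3+14, a log2 difference of -0.58 (SE 0.40, adjusted p = 0.262), which turned to 0.26 under quantile normalization (adjusted p = 0.454). C1C3a, at 860351 and 1321536 normalised reads, was below both FL libraries. Its log2 difference from FL was -1.69 (adjusted p = 0.00767), but without FL replicate 1 it was -1.26 (adjusted p = 0.0879) and without C1C3a replicate 1 -1.38 (adjusted p = 0.0831). From C3+14 it was -1.11 (adjusted p = 0.0611), which misses the threshold, while edgeR gave -1.16 (adjusted p = 0.0185). C1C3a was the lowest of the 3 upper levels under every alternative run, although its calls changed. FL and C3+14 changed places under quantile normalization alone.

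Below C1C3a the steps were wide and every library of the upper construct exceeded every library of the lower. C1C3b was 22.6-fold below C1C3a (log2 difference -4.50, adjusted p = 1.17e-06), C1C3c was 17.7-fold below C1C3b (-4.12, adjusted p = 1.43e-05), and C1+14 was below C1C3c by -7.56 on the log2 scale (adjusted p = 9.10e-08). Of the 7 copies, 7 were called lower in C1C3b than in C1C3a (17.3% of all genes were called lower), 7 in C1C3c than in C1C3b (7.66%) and 7 in C1+14 than in C1C3c (5.37%). For C1C3a against FL the count was 7 (4.62%), but 3 without FL replicate 1 or without C1C3a replicate 1. All libraries of these 4 comparisons have the high share of reads in high-copy genes.

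In comparisons with C3+14 only some of the copies passed the thresholds. Against FL, 2 of 7 copies were called lower (9.54% of all genes were), Zscan4b with a log2 difference of -1.23 (SE 0.31, adjusted p = 0.00652) and Zscan4e with -1.02 (SE 0.30, adjusted p = 0.0162). The other 5 lay between -0.63 (Zscan4d) and -0.37 (Zscan4-ps2) and were not called. C1C3a against C3+14 also gave 2 of 7 lower (7.38% of all genes), here Zscan4c (-1.12, adjusted p = 0.0489) and Zscan4d (-1.30, adjusted p = 0.00658). All 7 copies lay between -1.30 and -0.84 there. Zscan4f (-1.21, adjusted p = 0.0523) and Zscan4-ps2 (-1.21, adjusted p = 0.0734) fell further than Zscan4c without being called, so the calls do not separate the copies. Both counts rest on single libraries: C3+14 against FL gave 0 without FL replicate 1 and 1 without either C3+14 replicate, and C1C3a against C3+14 gave 0 without C3+14 replicate 2 or C1C3a replicate 1 and 1 without C3+14 replicate 1. C3+14 has the low high-copy share and FL and C1C3a have the high one.

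Zscan4b, as counted, changed in proportion to the other copies. Of its 50-base words 85.3% also occur in Zscan4e and 36.7% in Zscan4f, so its value depends on how shared reads were assigned. Zscan4b had 335104 and 230696 reads in FL, against 90006 and 101321 for C3+14 and 62058 and 78954 for C1C3a. Levels of 4410 and 2655 followed for C1C3b and of 214 and 195 for C1C3c. Zscan4f, the copy with the most reads in FL, C3+14, C1C3a, C1C3b and C1C3c, had 649108 and 445741 reads in FL, against 306152 and 349581 for C3+14, 171792 and 201499 for C1C3a, 15297 and 9279 for C1C3b and 940 and 888 for C1C3c. The ratio of Zscan4b to Zscan4f reads was 0.516 and 0.518 in FL, lower at 0.361 and 0.392 for C1C3a, 0.294 and 0.290 for C3+14 and 0.288 and 0.286 for C1C3b, and lowest at 0.228 and 0.220 for C1C3c. Replicates of a construct agree closely in this ratio even where, as in FL, their family sums differ by 1.80-fold.

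Scaled by size factors, the C3+14 libraries overlapped the FL libraries for 4 of the 7 copies (Zscan4a, Zscan4c, Zscan4f and Zscan4-ps2) and lay below both for Zscan4b, Zscan4d and Zscan4e. Zscan4c had 847976 and 465303 normalised reads in FL, while its C3+14 libraries held 440221 and 483624 and its C1C3a libraries 175352 and 258579. Zscan4d, the copy with the most words of its own, stood at 428658 and 224119 normalised reads for FL, 190923 and 210381 for C3+14 and 66259 and 100672 for C1C3a. For all 7 copies both C1C3a libraries lay below both C3+14 libraries. The share of all genes whose libraries separate in these ways was not counted, and the copies share sequence, so these orders are a description. In reads, Zscan4c fell further to 12988 and 7952 for C1C3b and 797 and 760 for C1C3c, and Zscan4d to 6697 and 3642 and then 349 and 391.

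Over the whole family, Zscan4b and Zscan4e made up 25.1% ± 0.385 of the Zscan4 reads in FL (n = 2), 20.7% ± 0.681 in C1C3a, 18.0% ± 0.130 in C1C3b, 17.5% ± 0.0422 in C3+14 and 14.6% ± 1.08 in C1C3c. Neighbouring groups in this order did not overlap, and the gaps between them were not tested. Zscan4c, Zscan4f and Zscan4-ps2 together went the other way, from 56.3% in FL to 64.8% in C1C3c. Zscan4b and Zscan4e have the largest shares of shared words and the shortest exons of the 7. The high-copy share of reads was 2.06% and 1.91% in the FL libraries, 0.294% and 0.295% in those of C3+14 and 1.80% and 1.67% in those of C1C3c. Its part in the shift, and that of read assignment, was not tested.

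**Figure D3:**
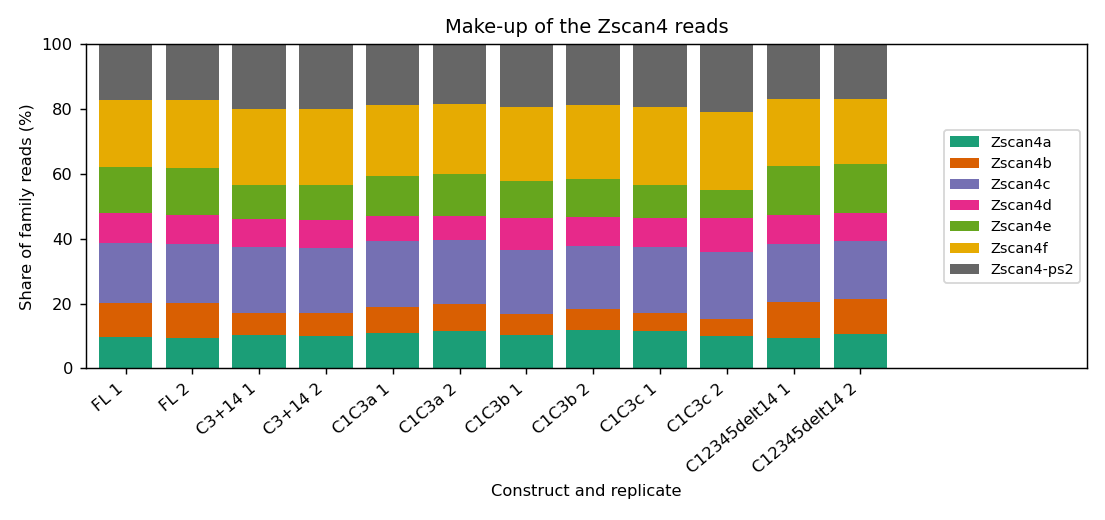
Share of the Zscan4 reads, in percent, held by each of the 7 genes in each library of 6 constructs, 2 libraries per construct. The Zscan4b and Zscan4e bands together are widest in FL and C12345delt14 (25.1% and 26.1%) and narrowest in C1C3c (14.6%), and replicates of a construct look alike.

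Per kilobase of exon, and with the shared words leaving each copy's value uncertain, Zscan4f was highest in FL with 379523 ± 153681 normalised reads per kb (n = 2), followed by Zscan4c with 288506 ± 118889 and Zscan4e with 286420 ± 109195. Zscan4d was lowest with 143657 ± 63658. In C3+14 the highest level was again that of Zscan4f (275430 ± 19223), and the lowest were Zscan4b (87376 ± 5220) and Zscan4d (88315 ± 6056), which do not differ beyond their spread. Across the 14 libraries of the chimera table, Pearson's r between any 2 copies on the log2 scale was 0.994 to 1.000 over 21 pairs, with a median of 0.998. The copies share sequence and libraries, and mCherry at 0 stretches the range, so this is a description.

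In the deletion table the level went with the construct that keeps the name C12345. C12345delt14 held 1712579 and 1506261 family reads (4.32% ± 0.849 of all reads), against 0 and 0 in deltC12345+14 and 16 and 0 in deltC12345delt14. C12345delt14 stood at 36.0% ± 11.5 of the FL mean, both of its libraries lying below both FL libraries. Its log2 difference from FL was -1.45 (SE 1.01, adjusted p = 0.399), so it did not pass the test. The difference was -0.93 under scaling by library total and -0.28 under quantile normalization, and neither passed. All sums of this table share 1 estimate of the spread, and deltC12345delt14 held 16 reads in 1 library and 0 in the other. In the fit of deltC12345delt14 against FL, the SE was 0.37 without its replicate 1.

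Both constructs named deltC12345 fell below FL. The sum was at least 2083100-fold lower in deltC12345+14 (log2 difference -22.02, adjusted p = 2.24e-06), and 675442-fold lower in deltC12345delt14 (counting interval 402685 to 1144070, log2 difference -20.11, adjusted p = 3.68e-06). All 7 copies were called in deltC12345+14, all of them lower (38.4% of the 19833 genes tested were called in either direction), and all 7 were called lower in deltC12345delt14 (20.3% called lower). Zero reads allow a share of up to 9.14e-06% and 9.81e-06% in the deltC12345+14 libraries. The 16 reads of deltC12345delt14 replicate 1, a library with the low high-copy share, were 6 on Zscan4e, 4 each on Zscan4b and Zscan4c, and 1 each on Zscan4f and Zscan4-ps2. With or without that library the sum stayed below FL, at -22.02 without it.

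For single copies, C12345delt14 against FL gave 0 of 7 called (0.620% of all genes were called lower), with log2 differences of -1.50 to -1.38 and adjusted p-values of 0.0630 to 0.268. DESeq2 called 4 of 7 lower, edgeR called none, and without FL replicate 2 limma called 2. The make-up of the family in C12345delt14 was close to that in FL: Zscan4b and Zscan4e held 26.1% ± 0.270, and the ratio of Zscan4b to Zscan4f reads was 0.541 and 0.548. Between deltC12345+14 and deltC12345delt14 neither the sum (log2 difference -1.91, adjusted p = 1) nor any copy was called. There limma called 0.00% of all genes, with 543 at an unadjusted p under 0.05, while edgeR also called 0 and DESeq2 2. Their high-copy shares of reads were 2.31% and 0.401% in deltC12345+14 and 0.430% and 2.59% in deltC12345delt14. The replicate spread of both groups contains that split, so the lack of calls does not show the constructs to be alike. The comparisons with FL share the FL libraries.

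Zfp352, a zinc finger gene of the 2-cell embryo, followed another order than Zscan4 in the upper 3 constructs. It had 5283 and 3893 reads in FL, against 16868 and 18932 for C3+14, 20714 and 20809 for C1C3a, 63 and 30 for C1C3b and 0 and 2 for C1C3c, with no read in C1+14 or mCherry. The FL libraries were the lowest of the upper 6. Zfp352 was higher than in FL by 2.29 on the log2 scale in C3+14 (SE 0.40, adjusted p = 0.000634) and by 2.11 in C1C3a (SE 0.40, adjusted p = 0.00211), where the Zscan4 sum differed from FL by -0.58 and -1.69. The difference between these contrasts was not tested by itself. In C12345delt14 Zfp352 had 2580 and 2824 reads and, like the Zscan4 sum, lay below FL without passing the test (log2 difference -1.51, adjusted p = 0.0778).

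**Figure D4:**
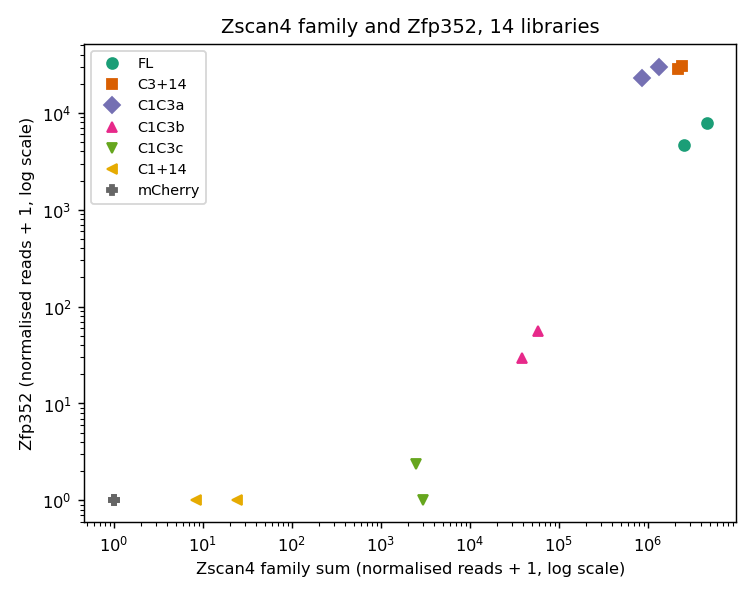
Zfp352 against the Zscan4 family sum in the 14 libraries of the chimera table, both in normalised reads + 1 on log axes, with 1 symbol per construct and 2 libraries each. On the deposited scaling FL lies furthest right (its difference from C3+14 turns under quantile normalization) but below C3+14 and C1C3a, and C1C3c keeps over 2500 normalised Zscan4 reads where Zfp352 is at 2 reads or fewer.

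Zfp352 was one of 9 low-copy genes of the 2-cell state listed for comparison, 8 of which were named and tested. In FL 7 of 8 rose against mCherry (24.5% of all genes were called higher) and none fell, with a median log2 difference of 8.21. In C3+14 (29.6%) and C1C3a (27.4%) 8 of 8 rose. Gm4027 was higher in FL by 13.33 (adjusted p = 1.84e-10) and Sp110 by 11.90 (adjusted p = 1.42e-10). Further along the constructs 6 of 8 rose in C1C3b (27.6% of all genes), 3 in C1C3c (18.3%) and 1 in C1+14 (12.4%). The count in C1+14 is near the share of all genes. Against FL, 5 of 8 were higher in C3+14 (16.8% of all genes were) and 5 in C1C3a (11.0%), and none was lower. They were Zfp352, Tdpoz4, Gm4027, Arg2 and Zfp560 in both, though Gm4027 in C1C3a was not called under quantile normalization. None of the 8 was called in C12345delt14 against FL, while 7 were lower in deltC12345+14 (3966 of all 19833 genes were) and 8 in deltC12345delt14 (20.3%).

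Of 15 genes reported to act on Zscan4 or on the 2-cell state, 2 rose and 3 fell in FL against mCherry. Over all genes tested 24.5% were called higher and 19.7% lower in this comparison, so the list's counts are near or below the background. Tbx3, a T-box factor of the stem cell network, had 181 and 490 normalised reads in FL, 1401 and 1373 in C3+14, 3025 and 3575 in C1C3a and 4388 and 4247 in mCherry, a log2 difference of -3.85 in FL (adjusted p = 3.58e-07). Rif1, a telomere-associated protein that represses Zscan4, fell by 1.68 (adjusted p = 7.17e-05), and Chaf1a, a chromatin assembly subunit, fell by 1.51 (adjusted p = 4.24e-06). Trim28, a co-repressor, and Chaf1b, another chromatin assembly subunit, rose by 1.09 each. Neither was called under quantile normalization or under scaling by library total, and Trim28 then turned to -0.18 under the former. The list gave 0 higher and 3 lower under quantile normalization and 0 and 9 under scaling by library total. Of all 21584 genes, 3917 were called higher and 5589 lower under the former, and 3585 and 9238 under the latter.

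Dppa2, an activator of Dux and Zscan4 in stem cells, had 6571 and 4109 normalised reads in FL, 15362 and 15050 in C3+14, 15490 and 16638 in C1C3a and 2768 and 2756 in mCherry. Against FL it was higher by 1.55 on the log2 scale in C3+14 (adjusted p = 1.86e-05) and by 1.63 in C1C3a (adjusted p = 3.24e-05). Against mCherry it was not called in FL (log2 difference 0.91, under the limit of 1, and -0.12 under scaling by library total). Among the 15 regulators 3 were higher than in FL in both constructs, Dppa2, Tbx3 and Rif1, and none was lower, beside 16.8% of all genes called higher for C3+14 and 11.0% for C1C3a. Rif1 in C1C3a was not called under quantile normalization. Of all genes, 17.7% were called lower than mCherry for C3+14, 19.0% for C1C3a, 17.1% for C1C3b, 10.5% for C1C3c and 5.95% for C1+14, beside the shares called higher given above. The regulators' counts against mCherry were 1 higher and 2 lower for C3+14, 1 and 0 for C1C3a, 1 and 3 for C1C3b, 1 and 1 for C1C3c, and 0 and 2 for C1+14.

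Of the telomere and recombination genes, to which the family is linked, 21 of 22 listed were tested, and 2 rose and 4 fell in FL, with a median log2 difference of 0.03, and scaling by library total gave 1 and 11. Set against 24.5% and 19.7% of all genes, the counts on the deposited scaling show nothing particular to the list. Under scaling by library total 3585 of all 21584 genes were called higher and 9238 lower. Dmc1, a meiotic recombinase, had 121 and 69 normalised reads in FL and 20 and 11 in mCherry (log2 difference 2.52, adjusted p = 0.000186), and Smc1b, a meiotic cohesin subunit, rose by 1.54 (adjusted p = 0.000724) but was not called under scaling by library total. Tert, the catalytic subunit of telomerase, fell by 2.16 (adjusted p = 9.62e-05) and Terf2, a telomere-binding protein, fell by 1.53 (adjusted p = 2.49e-06). C3+14 had 2 higher and 2 lower (29.6% and 17.7% of all genes), and C1C3a had 2 and 6 (27.4% and 19.0%). C1C3b had 0 and 3 (27.6% and 17.1%), C1C3c also had 0 and 3 (18.3% and 10.5%), and C1+14 had 1 and 3 (12.4% and 5.95%).

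Other genes with a SCAN domain and zinc fingers were set beside the Zscan4 cluster. Of 23, 1 rose (Zkscan1, by 1.06, lost under scaling by library total) and 7 fell in FL, with a median log2 difference of -0.79. Of all genes 24.5% rose and 19.7% fell in this comparison. Scaling by library total gave 0 and 19 for the list, with 3585 of all 21584 genes called higher and 9238 lower. Zscan20 fell by 3.97 (adjusted p = 6.25e-05) and Zscan10, a stem cell factor, fell by 2.04 (adjusted p = 2.37e-08). For C3+14 the counts were 4 and 3 (29.6% and 17.7% of all genes), and for C1C3a 2 and 4 (27.4% and 19.0%). For C1C3b they were 4 and 2 (27.6% and 17.1%), for C1C3c 6 and 2 (18.3% and 10.5%), and for C1+14 3 and 1 (12.4% and 5.95%). Of the stem cell markers, 6 of 10 fell and none rose in FL, among them Sox2 (fell by 2.82), Klf4 (fell by 2.81) and Esrrb (fell by 2.50). In the same comparison 0 trophectoderm markers rose and 3 of 9 fell, 2 primitive endoderm markers rose and 1 of 9 fell (1 and 6 under scaling by library total), and 1 fibroblast marker rose and 1 of 7 fell. Markers also moved in other comparisons in which Zscan4 differed. C1C3b against C1C3a had 6 of 10 pluripotency genes lower (17.3% of all genes were lower). Of 7 fibroblast genes 4 were higher and 2 lower there (18.3% of all genes were higher). The sum over 10 fibroblast genes was only 198 to 206 normalised reads in C1C3b and 122 to 138 in C1C3a. C1C3b against mCherry had 6 of 9 primitive endoderm genes higher (27.6% of all genes were) and 7 of 10 pluripotency genes lower (17.1%). C1C3c against C1C3b, where Zscan4 also fell, had 7 of 10 pluripotency genes higher (761 of all 21584 genes were). Against FL, 7 of 10 pluripotency genes were higher in deltC12345+14 (18.4% of all genes were) and 7 of 10 in deltC12345delt14 (18.8%). The part of these markers in the Zscan4 levels was not tested.

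The genes whose pattern was most like the family sum, by Pearson's r on the log2 scale over 14 libraries, lie on chromosome 4: Gm13057 (r = 0.997), Gm13040, Gm13101, Gm13043 and BC080695 (r = 0.996 each), with 44.8% to 100% of their 50-base words shared with other genes. Among genes with under 20% of shared words the most alike were Gm6494 (r = 0.996), AA623943 (r = 0.994), Tmem92 (r = 0.988), Gm11543 (r = 0.986) and Usp17la (r = 0.984). Gm6494 had 27464 and 19100 reads in FL, against 15271 and 17420 for C3+14, 10728 and 10251 for C1C3a, 1069 and 1439 for C1C3b, 118 and 142 for C1C3c, 7 and 7 for C1+14 and none in mCherry. Of 21575 genes, 681 had an r of at least 0.9 and 9 an r of at least 0.99, and Zfp352 stood at 0.899. All points share libraries and depth.

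Other transcripts on this part of chromosome 7 had reads too. The remaining Zscan4 symbols, Zscan4-ps1 (11065139 to 11069691, among the 7 copies) and Zscan4-ps3 (11609308 to 11614112, beyond the last of them), had 171432 and 108045 reads and 359956 and 243562 reads in FL, and none in mCherry. Of 39 genes without a Zscan4 symbol annotated between the first and the last of the 7 copies, 20 were tested in the chimera table. The filter lets such genes through where they are high, so the counts are a description: 20 were called higher than mCherry in FL, 11 for C3+14, 15 for C1C3a, 4 for C1C3b, 2 for C1C3c and 1 for C1+14, where 1 was called lower. Of all genes, 24.5%, 29.6% and 27.4% were called higher for the first 3 constructs. The last 3 counts are below the shares of all genes called higher (27.6%, 18.3% and 12.4%). Gm45551, which shares sequence with the copies, is among the 20 and had their highest FL level. It held 14508 and 9130 normalised reads in FL, 151 and 91.1 in C1C3b, and 13.6 and 7.44 in C1C3c. Whether these are reads of the Zscan4 copies was not tested. Gm4903 had 144 and 169 normalised reads in FL, 117 and 147 in C3+14 and 144 and 123 in C1C3a, and was at 0 in C1C3b, C1C3c, C1+14 and mCherry. It was named after its values were seen. For the deletion series, 19 of 21 were called lower in each deltC12345 construct than in FL and 0 of 21 in C12345delt14. Of all 19833 genes, 3966 were called lower in deltC12345+14, 4017 in deltC12345delt14 and 123 in C12345delt14.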

How the data were processed

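Poly(A) RNA of 20 libraries was used. The deposited values are a normalized signal, reads per gene that the authors divided by 1 size factor per library, and each of 2 tables was scaled separately. Per the submitters' processing notes, reads were trimmed with Trim Galore 0.5.0, and FastQC, DESeq2 and the mm10 build were used. The aligner, counter and annotation are not given in the sources used here. All 1220714 values (100%) were whole multiples of 1 step per column within 0.01, which gave back whole reads.

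Gene symbols came from GENCODE M21 (55227 identifiers matched, 99.5%). The filter kept genes that reached 10 normalised reads in 2 or more libraries, and these were tested with limma 3.58.1 (R 4.3.3) on log2(value + 1), all groups of a table in 1 fit and 27 pairs of groups in all. A gene was called when its p, adjusted by Benjamini-Hochberg over the table, was below 0.05 and its log2 difference reached 1 in either direction. A library at 0 was given a limit of 3 reads. Only the limma fit was tested on simulated counts. Their replicate spread was set rather than taken from these data, and no simulated gene was set to 0 in a group. Alternatives were other pseudocounts, no filter, quantile normalization, scaling by library total, a replicate block, only the 2 groups compared, leaving out each library, edgeR 4.0.16 and DESeq2 1.42.0 on the recovered reads, with the comparisons between neighbouring constructs added after seeing the data.

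The members and the 8 gene lists were chosen with earlier results of these data known. Named by rule were the 7 copies, other Zscan4 symbols, the 5 genes most like the family sum among all and among those with under 20% shared 50-base words, Zfp352, and up to 3 genes higher and 3 lower per list in FL with a mean of at least 50. Dppa2 and genes called in both C3+14 and C1C3a were named after their values were seen. Some genes named by the rule are given only within counts.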

Additional observations from a re-analysis of the deposited data

How the results depend on the processing

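The family sum kept its direction and its call against mCherry in all 6 constructs of the chimera table under every alternative run, and so did both deltC12345 constructs against FL. Between neighbours it was less fixed. For C1C3a against FL the sum lost its call without the filter on low values (-1.69, adjusted p = 0.112) and under quantile normalization (-0.89), and leaving out 1 library gave -2.11 to -1.26. For C1C3a against C3+14 it gained a call with a pseudocount of 8 (-1.11), quantile normalization (-1.14), scaling by library total (-1.24) and edgeR (-1.16). For C12345delt14 against FL, not called, it ran from -1.48 to -0.28 over the alternatives and from -1.87 to -1.04 on leaving out 1 library. For C3+14 against FL it turned to 0.26 under quantile normalization. For deltC12345+14 against deltC12345delt14, neither called, leaving out 1 library gave -3.82 to 0. The cause was not tested.

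Counts of called copies moved as follows. For C1+14 against mCherry (4) a pseudocount of 8 gave 0, no filter 2, only the 2 groups 0 and edgeR 0. For C3+14 against FL (2) a pseudocount of 0.1, no filter, quantile normalization and scaling by library total gave 0 and edgeR 1, with 0 to 3 on leaving out 1 library. For C1C3a against FL (7) a pseudocount of 0.1 gave 4, and no filter and quantile normalization gave 3, with 3 to 7 on leaving out 1 library. For C1C3a against C3+14 (2) a pseudocount of 0.1 gave 1, no filter 0, a pseudocount of 8, quantile normalization, library total and only the 2 groups 4, and edgeR 5, with 0 to 2 on leaving out 1 library. For C12345delt14 against FL (0) a pseudocount of 8 gave 7, only the 2 groups 1, DESeq2 4 and leaving out 1 library 0 to 2.

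Replicate numbers did not pair the samples (0 of 21 group pairs in the chimera table and 1 of 6 in the deletion table had deviations correlated over 0.1). Negative values went further: the lowest r was -0.574 among deletion pairs, against -0.101 among chimera pairs. A replicate block fits shifts shared by samples of the same number, so it does not take up such opposite deviations. Their link to the high-copy split was not tested. With the replicate block the sum in FL against mCherry was 21.71 (adjusted p = 2.34e-13), and no call on a sum changed. Scaling by library total moved the median log2 difference of all genes in FL against mCherry from 0.09 to -0.86, and the share of called genes that were higher from 55.5% to 28.0% (41.2% with quantile normalization). Library total took that share from 62.6% to 37.3% for C3+14 and from 59.0% to 32.9% for C1C3a against mCherry, from 51.4% to 79.5% for C1C3b against C1C3a, and from 47.9% to 83.2% for deltC12345+14 and 48.1% to 81.7% for deltC12345delt14 against FL. For FL against mCherry the genes called lower went from 4242 to 9238 under library total. C12345delt14 against FL gave 190 calls, 30 with a pseudocount of 0.1, 1170 with 8, 317 without the filter, 434 with quantile normalization, 0 by library total, 45 with the block, 1070 with only the 2 groups, 465 with edgeR, 1292 with DESeq2 and 0 to 1392 on leaving out 1 library. C1+14 against C1C3c gave 1690 calls, 726 without the filter, 462 with only the 2 groups, 551 without C1C3c replicate 2 and 701 without C1+14 replicate 2. C1C3a against C3+14 gave 3215, and 1801 without C3+14 replicate 2, C1C3c against C1C3b gave 2415, and 1449 without C1C3b replicate 2, and C1+14 against mCherry gave 3953, and 2588 without mCherry replicate 1. With 12 to 32 reads for the whole family, C1+14 is limited by depth.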
